A study of Mus musculus with 9 samples.

Results

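Bone marrow-derived macrophages express, at rest, a set of genes that bacterial lipopolysaccharide (LPS) all but switches off, and the 166 genes described here are those whose messenger RNA was left at 10% or less of its resting level. They were selected on measured values from 24445 genes, of which 11622 had enough counts to test. A gene was taken when its mean level in untreated cells was at least 5 CPM, which are read counts brought to a common library size with the trimmed mean of M values (TMM). Its mean in LPS-treated cells also had to be at or below 0.1 of that level, with 0.1 CPM added to both means. Of 9262 genes at 5 CPM or more, 179 (1.93%) met both limits, and 13 of these were left out by name or as predicted genes. The 166 falls under LPS therefore describe how the genes were chosen and are given without a test.

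The study grew macrophages from the marrow of wild-type C57Bl/6 mice and sequenced RNA from 9 libraries, 3 in each of 3 groups. Each culture was given a pretreatment of 1 h and then a treatment of 24 h. In Veh_N both were vehicle, in Veh_LPS vehicle was followed by LPS, and in D2HG_LPS an octyl ester of D-2-hydroxyglutarate (D2HG) was followed by LPS. All 3 groups share the strain, the cell type and the timing, and no group received the ester without LPS or an octyl ester of another acid, so the acid and the ester cannot be told apart. The dose and the origin of the replicates (other animals, other dishes or neither) are not given in the labels, so a p-value here covers the spread between samples alone, and that spread may be technical.

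LPS is a component of the outer membrane of Gram-negative bacteria that macrophages sense through Toll-like receptor 4. The receptor drives inflammatory genes through NF-kB, AP-1 and interferon regulatory factors, and it lowers many genes of the resting macrophage, through less transcription, through faster decay of messages, or both. D2HG resembles alpha-ketoglutarate with its keto group reduced, and high levels of it inhibit dioxygenases that use alpha-ketoglutarate, among them demethylases of histones and DNA. The comparison asked which of the silenced genes stayed silent and which were partly restored when the ester preceded LPS.

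Depth ran from 9451258 to 13759935 counts per library. The summed level of 9 macrophage markers was 13460 to 15970 CPM in Veh_N, 12680 to 13270 in Veh_LPS and 12720 to 13500 in D2HG_LPS, and 0 of the 9 differed between the LPS groups (edgeR, Benjamini-Hochberg adjusted p below 0.05). In Veh_LPS against Veh_N, 5 of the 9 were called higher and 3 lower, where 35% and 38.9% of all genes were. The sum thus holds opposite changes under LPS. Of the lists for other cells, 7 erythroid and megakaryocyte markers together stood at 100.3 to 120.1 CPM in Veh_N, 169 to 241 in Veh_LPS and 233 to 248 in D2HG_LPS, and 0 of them were called with the ester. The 8 stromal and endothelial markers stood at 8.78 to 11.9 CPM in Veh_N, 150 to 169 in Veh_LPS and 91.6 to 102 in D2HG_LPS. The 8 neutrophil markers stood at 74.1 to 86.4, 213 to 234 and 169 to 185 CPM in the same order, and in each of the stromal and neutrophil lists 1 marker was called lower with the ester. The 7 T and NK cell markers stood at 1.02 to 1.59, 18.5 to 32.4 and 19.6 to 22.2 CPM in the same order. The 7 dendritic cell markers stood at 2.19 to 4.075, 18.35 to 20.74 and 18.8 to 20.4 CPM. Lower under LPS were the 7 B cell markers, at 8.34 to 11.3, 3.61 to 4.35 and 4.05 to 5.72 CPM. So were the 8 mast cell and basophil markers, at 5.88 to 7.115, 1.14 to 1.58 and 0.592 to 1.28 CPM. In each of these lower lists the 1 tested marker was called lower under LPS and 0 were called with the ester. None of the 8 stromal and 8 neutrophil markers was at 0 in all libraries, no marker of another cell type is among the silenced genes, and their part in the results below was not tested. These are bulk libraries, so fewer cells of a type and less RNA per cell cannot be told apart.

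With the ester, most of the set remained silent. Of the 166 genes, 123 (74.1%) were at or below 10% of their Veh_N level in D2HG_LPS too, while 1.63% of all genes at 5 CPM or more were that low. The Veh_N values are those that chose the genes, so this share leans toward silence by selection. In 101 genes this held in each of the 3 D2HG_LPS libraries. The other 43 genes were above the 10% line, 27 of them in all 3 D2HG_LPS libraries, and none reached 50% of its resting level. The furthest back were the inhibitory receptor gene Cd300a, at 21.2% of its Veh_N level, and the arrestin-domain gene Arrdc3, at 20.3%. Those were the only 2 at or above 20%. The share of the Veh_N level had a median of 6.83% in Veh_LPS and 7.22% in D2HG_LPS.

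**Figure D1:**
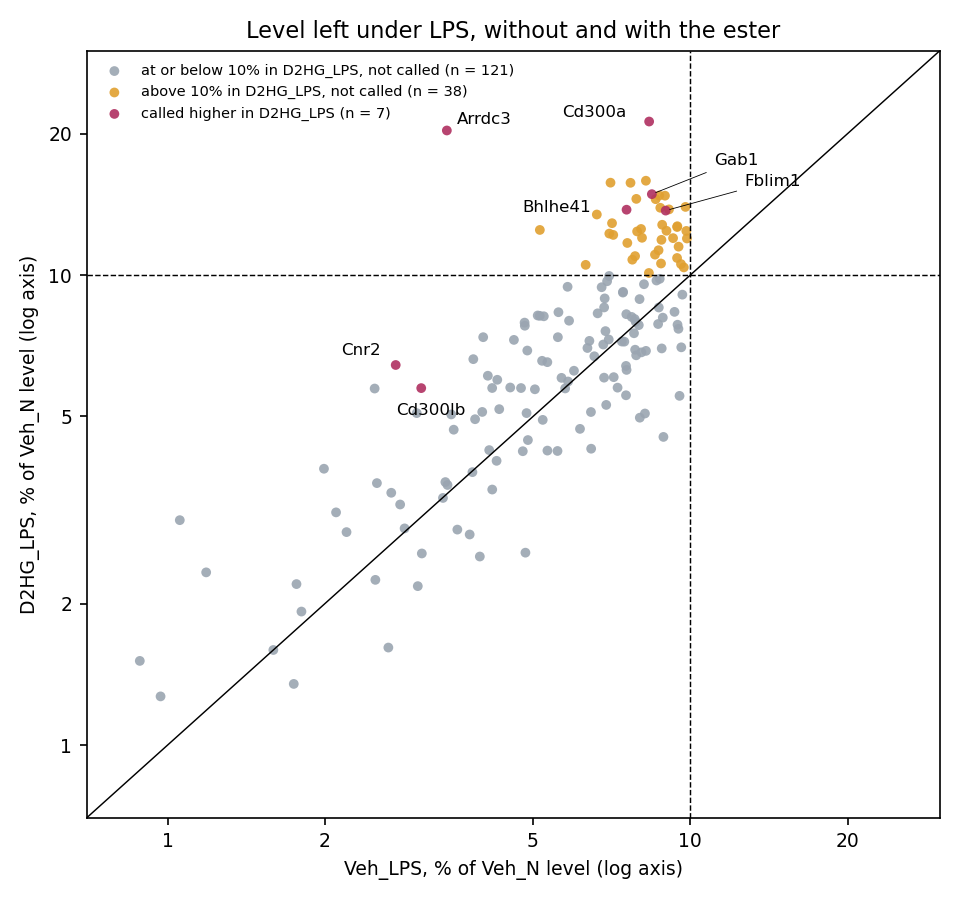
Level left under LPS as a percent of the Veh_N mean, in Veh_LPS (horizontal, log axis) and D2HG_LPS (vertical, log axis), 1 point for each of 166 genes, with 0.1 CPM added to the means. Dashed lines mark 10% and the solid line marks equal levels. By selection no point lies right of the vertical dashed line, 43 lie above the horizontal one, and Cd300a (21.2%) and Arrdc3 (20.3%) lie highest.

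By edgeR's quasi-likelihood test over all 11622 genes, 7 of the 166 (4.22%) were higher in D2HG_LPS than in Veh_LPS at a Benjamini-Hochberg adjusted p below 0.05, against 1.15% of all tested genes. They were Arrdc3, Cd300a, Cnr2, Cd300lb, Bhlhe41, Gab1 and Fblim1. Of these, 5 were also above the 10% line, while Cd300lb and Cnr2 rose and stayed below it. None of the 166 was called lower, against 0.955% of all genes, and neither DESeq2 nor limma-voom called any lower. At an unadjusted p below 0.05, 44 were higher (26.5%, against 8.05% of all genes) and 6 lower (3.61%, against 7.71%). The rule kept genes with low values in the Veh_LPS libraries, so a fold change of D2HG_LPS over Veh_LPS leans upward by selection, and every count of this comparison is read with that in mind.

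Arrdc3 encodes an alpha-arrestin, an adaptor that links membrane proteins to ubiquitin ligases. Its level was 111, 89.8 and 85.6 CPM in the Veh_N libraries, 3.46, 3.5 and 2.54 in Veh_LPS and 19.2, 22 and 16.6 in D2HG_LPS. Every D2HG_LPS library was above every Veh_LPS library and below every Veh_N library. The log2 fold change over Veh_LPS was 2.62 ± 0.18 (SE; edgeR adjusted p = 1.22e-05), the highest of the 166. The mean went from 3.17 ± 0.544 to 19.3 ± 2.73 CPM (SD, n = 3 libraries).

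Cd300a and Cd300lb encode receptors of the CD300 family on myeloid cells, the first inhibitory and a binder of phosphatidylserine, the other activating through an adaptor. In the order of genes of the GRCm38.p6 assembly they lie next to each other on chromosome 11. Cd300a stood at 220.2, 248 and 293 CPM in Veh_N, 23.2, 21.3 and 18.7 in Veh_LPS and 54.5, 50.1 and 56.7 in D2HG_LPS. With the ester its 3 libraries were all more than 2 times the Veh_LPS values. Cd300lb stood at 249.5, 231 and 216 CPM in Veh_N, 6.42, 6.79 and 7.79 in Veh_LPS and 12.1, 13.2 and 14.5 in D2HG_LPS. Both pairs of LPS groups were separate, but Cd300lb kept only 5.75% of its Veh_N level. Log2 fold changes over Veh_LPS were 1.35 ± 0.12 for Cd300a (SE; edgeR adjusted p = 0.000129) and 0.92 ± 0.12 for Cd300lb (edgeR adjusted p = 0.00214).

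Cnr2 encodes the cannabinoid receptor of immune cells, which couples to inhibitory G proteins. It stood at 45, 47.1 and 46.5 CPM in Veh_N, 1.09, 1.27 and 1.14 in Veh_LPS and 2.93, 2.56 and 3.16 in D2HG_LPS, so it more than doubled and yet reached only 6.43% of the resting level (1.30 ± 0.20 on the log2 scale, edgeR adjusted p = 0.00525). Bhlhe41 encodes a basic helix-loop-helix repressor of the circadian clock. It stood at 91.1, 88.5 and 91.1 CPM in Veh_N, 6.03, 6.79 and 7.35 in Veh_LPS and 11.2, 13.6 and 12.2 in D2HG_LPS (0.88 ± 0.12, edgeR adjusted p = 0.00225). In both genes the LPS groups did not overlap.

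Fblim1 encodes migfilin, which links filamin to cell-matrix adhesions. It stood at 159, 182 and 176 CPM in Veh_N, 16, 14.3 and 15.8 in Veh_LPS and 24, 24.5 and 22.2 in D2HG_LPS (0.61 ± 0.10, edgeR adjusted p = 0.0065). Without D2HG_LPS replicate 1 its adjusted p was 0.0503. Gab1 encodes a docking protein that carries phosphoinositide 3-kinase and the phosphatase SHP2 to growth factor receptors. It stood at 25.7, 28.3 and 28.8 CPM in Veh_N, 2.37, 2.33 and 2.01 in Veh_LPS and 4.29, 4.01 and 3.75 in D2HG_LPS (0.85 ± 0.17, edgeR adjusted p = 0.0268). The Gab1 groups were separate, but its call was lost in 9 of 18 alternatives, among them the removal of any single LPS-treated library (adjusted p from 0.0667 to 0.125) or of Veh_N replicate 2 (0.0545) and limma-voom (0.0675).

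**Figure D2:**
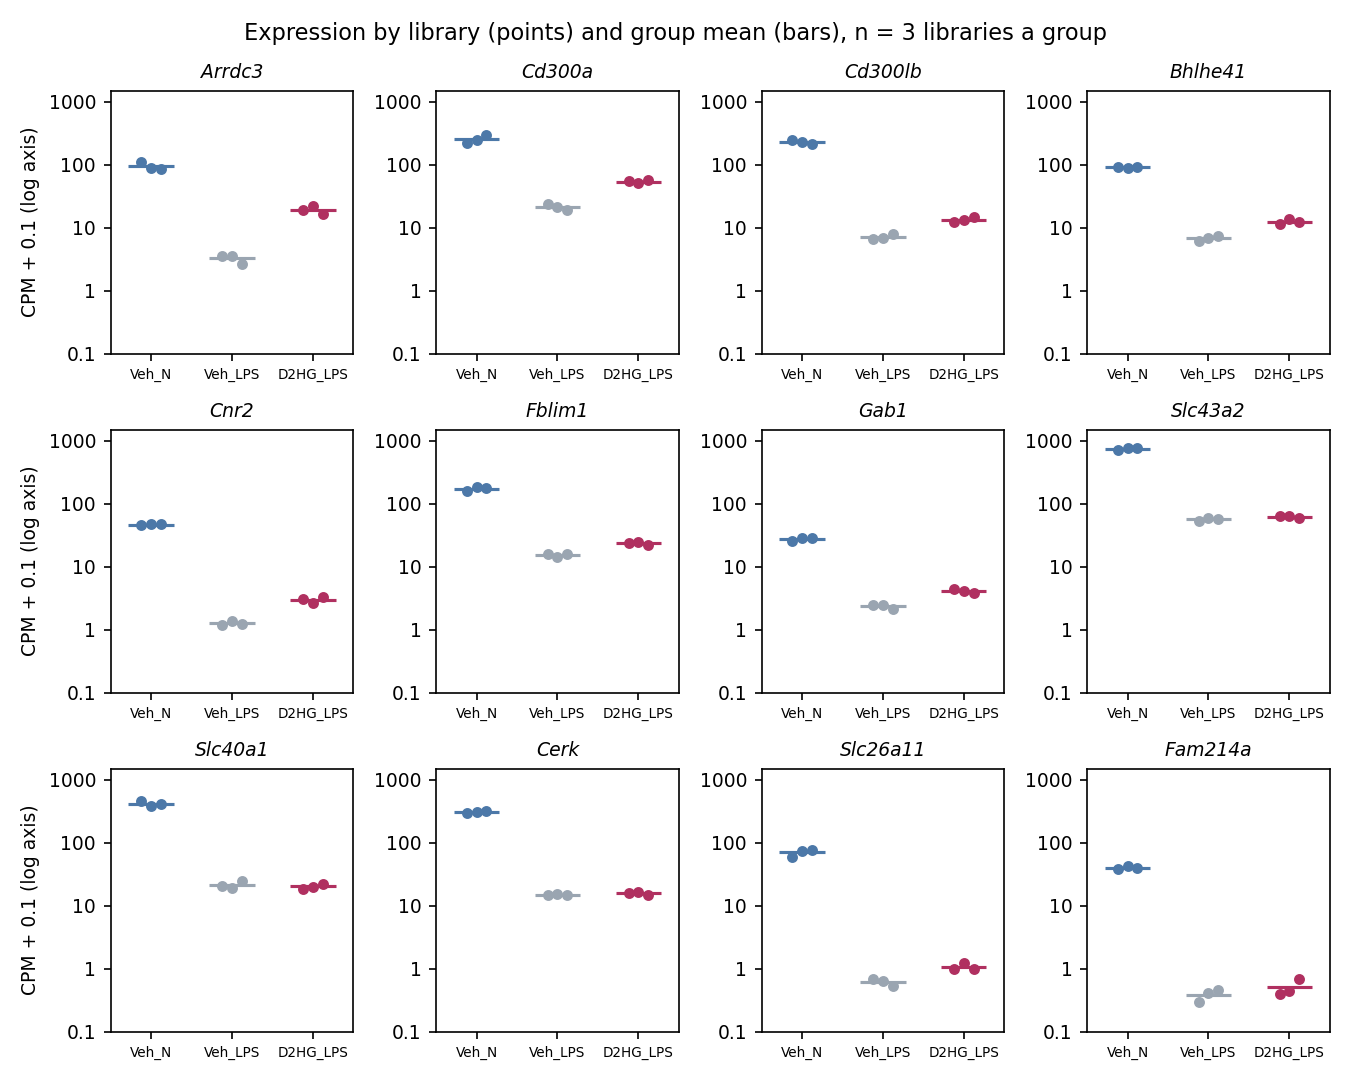
Level in each library (points, CPM + 0.1, log axis) and group mean (bars) for the 7 genes called higher with the ester and for 5 that were not, n = 3 libraries a group. In Arrdc3, Cd300a, Cd300lb, Bhlhe41, Cnr2, Fblim1 and Gab1 every D2HG_LPS point is above every Veh_LPS point and far below Veh_N, while in Slc43a2, Slc40a1, Cerk and Fam214a the LPS groups overlap.

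The windows before the starts of 4 of these genes, and of Fam214a, which stayed near 1% of its resting level, are printed so that genes called higher and a gene without a call can be set side by side. Each holds the 250 bases before the most upstream start listed by RefSeq (GRCm38.p6), 5′ to 3′ on the gene's strand, with matches to 11 motifs in capitals. Arrdc3 is at chr13:80883134-80883383, plus strand, Cd300a at chr11:114889791-114890040, plus strand, Cd300lb at chr11:114934372-114934621, minus strand, Bhlhe41 at chr6:145865421-145865670, minus strand and Fam214a at chr9:74952630-74952879, plus strand.
Arrdc3: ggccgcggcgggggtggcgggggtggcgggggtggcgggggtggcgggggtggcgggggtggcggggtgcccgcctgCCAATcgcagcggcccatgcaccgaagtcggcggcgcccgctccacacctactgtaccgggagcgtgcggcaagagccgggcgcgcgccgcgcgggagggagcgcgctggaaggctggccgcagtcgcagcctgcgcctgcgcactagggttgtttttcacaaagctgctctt
Cd300a: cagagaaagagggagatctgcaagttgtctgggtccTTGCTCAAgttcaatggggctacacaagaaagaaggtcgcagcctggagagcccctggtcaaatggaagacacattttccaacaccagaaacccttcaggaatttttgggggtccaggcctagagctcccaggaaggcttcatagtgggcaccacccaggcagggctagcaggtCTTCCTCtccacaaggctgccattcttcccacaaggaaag
Cd300lb: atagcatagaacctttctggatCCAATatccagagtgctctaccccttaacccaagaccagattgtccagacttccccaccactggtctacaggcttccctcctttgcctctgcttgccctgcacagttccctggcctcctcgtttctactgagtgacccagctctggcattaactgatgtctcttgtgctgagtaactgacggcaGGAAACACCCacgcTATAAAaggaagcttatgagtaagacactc
Bhlhe41: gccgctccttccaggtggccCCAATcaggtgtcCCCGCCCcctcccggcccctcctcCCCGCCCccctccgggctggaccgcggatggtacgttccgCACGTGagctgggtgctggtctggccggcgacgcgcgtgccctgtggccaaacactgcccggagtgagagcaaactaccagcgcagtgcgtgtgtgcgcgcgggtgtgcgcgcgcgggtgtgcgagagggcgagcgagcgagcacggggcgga
Fam214a: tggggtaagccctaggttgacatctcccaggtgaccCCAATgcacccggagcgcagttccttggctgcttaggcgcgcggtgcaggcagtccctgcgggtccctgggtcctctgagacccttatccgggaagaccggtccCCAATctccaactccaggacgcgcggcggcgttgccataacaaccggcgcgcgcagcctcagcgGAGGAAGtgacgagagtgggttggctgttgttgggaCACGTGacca

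Motifs were searched on both strands, N standing for any base, and no matches overlapped in these windows. Of 11884 windows of tested genes, GTAAACA (FoxO) was in 2.20%, CACGTG (E-box) in 8.47%, TGACGTC (CRE) in 4.62%, GGGCGGG (GC box) in 42.0% and GAGGAAG (PU.1) in 11.1%. TTGCNNAA (C/EBP) was in 7.59%, TGANTCA (AP-1) in 4.56%, the NF-kB pattern (GGG, any 2 bases, TT, any base, CC) in 4.94%, the ISRE pattern (GAAA, any 2 bases, GAAA) in 2.93%, CCAAT in 35.2% and TATAAA in 6.33%. The Arrdc3 window held 1 match, to CCAAT, and Cd300a held 1 to C/EBP and 1 to PU.1. Cd300lb held 1 match each to CCAAT, NF-kB and TATAAA, the last 30 bases before the start. Bhlhe41 held 1 to CCAAT, 2 to the GC box and 1 to the E-box, and Fam214a 2 to CCAAT, 1 to PU.1 and 1 to the E-box. The most upstream windows of the called gene Cnr2 and of Tcp11l2, which had no call, were searched in the same way and held 0 matches. Some genes have later starts with other matches. The window of a later Cnr2 start matched C/EBP, NF-kB and CCAAT, that of a later Arrdc3 start the GC box and that of a later Fam214a start C/EBP. The Arrdc3 and Bhlhe41 windows were 76.0% and 73.6% G and C, those of Cd300a and Cd300lb 53.6% and 50.4%. A match describes letters and is not evidence that a factor binds. Windows were listed for 125 of the 166 genes (75.3%), under the 80% needed, so a comparison of base composition or motifs between the set and other genes is void.

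The 2 most abundant members at rest, once level was divided by transcript length, were transporters. Slc40a1, ferroportin, which exports iron from the macrophage, had 122 CPM per kilobase in Veh_N, and Slc43a2, a carrier of large neutral amino acids, 105. In CPM, Slc40a1 stood at 452, 374 and 408 in Veh_N, 20.6, 19 and 24.5 in Veh_LPS and 18.4, 19.98 and 22 in D2HG_LPS. The LPS groups overlapped, and the log2 fold change was -0.09 ± 0.12 with a 95% interval of -0.35 to 0.17. Slc43a2 stood at 721, 766 and 754 CPM in Veh_N, 52.4, 59 and 57.3 in Veh_LPS and 62.9, 63.1 and 58.7 in D2HG_LPS (0.13 ± 0.08, interval -0.04 to 0.30). In both genes the interval excludes a return of 1.5-fold.

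Slc26a11, a sulfate transporter, had the lowest share under LPS by the ratio of the rule, 0.885% of its Veh_N level. Its libraries gave 58.1, 74.7 and 77.3 CPM in Veh_N, 0.593, 0.53 and 0.438 in Veh_LPS and 0.878, 1.11 and 0.888 in D2HG_LPS. All 3 libraries with the ester were above those without, at 9, 13 and 9 counts against 6, 5 and 5, but the change did not pass the test (0.89 ± 0.38, edgeR adjusted p = 0.282). Of the 11 transporters and channels 9 stayed silent, among them Slc45a4 (6.06%), the lysosomal carrier Slc46a3 (7.21%), the organic anion carrier Slco2b1 (5.11%), the peroxisomal fatty acid transporter Abcd2 (4.71%) and Abcg3 (7.22%). The potassium channel Kcnk13 was above the line at 12.7% without passing the test.

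Surface receptors made up 20 of the set, and 15 stayed silent. Beside the 3 called receptors (Cd300a, Cd300lb, Cnr2), the rest were not called in either direction. Cd28, a costimulatory receptor best known from T cells, stood at 254, 180.0 and 157 CPM in Veh_N, 17.7, 15.7 and 23.1 in Veh_LPS and 13.5, 16 and 11.7 in D2HG_LPS (-0.46 ± 0.21, edgeR adjusted p = 0.313). The haemoglobin scavenger receptor Cd163 was at 7.24% of rest with the ester, the lysophospholipid receptor Gpr34 at 2.52% and Lpar5 at 2.25%. The last 2 had 6 and 5 counts over the 3 D2HG_LPS libraries, so the 0.1 CPM added to the means is a large part of these shares. Receptors above the line without a call were the interleukin-6 receptor Il6ra (11.3%), the prostaglandin E2 receptor Ptger2 (13.9%), the activin receptor Acvr2b (13.8%) and the scavenger receptor Stab2 (12.4%). Lifr, the leukaemia inhibitory factor receptor, was lower in all 3 libraries with the ester (1.98, 2.12 and 2.62 against 1.56, 1.11 and 1.38 CPM), at -0.74 ± 0.23, which did not pass the test (edgeR adjusted p = 0.129).

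Signal relays were the biggest class with 32 genes, of which 26 stayed silent. Arrb1, beta-arrestin 1, which uncouples and internalises G protein-coupled receptors, stood at 272, 278 and 272 CPM in Veh_N, 10.3, 10.5 and 10.4 in Veh_LPS and 10.2, 10.5 and 10.3 in D2HG_LPS. The LPS groups overlapped almost fully, and the 95% interval of the log2 fold change was -0.20 to 0.19. Both arrestin-type genes were thus cut to a like share by LPS, 3.83% for Arrb1 and 3.42% for Arrdc3, and with the ester stood at 3.81% and 20.3%. Arhgap19, a GTPase-activating protein, stood at 213, 204 and 209 CPM in Veh_N, 6.52, 7.21 and 4.81 in Veh_LPS and 3.8, 5.98 and 3.55 in D2HG_LPS. Rab3il1, an exchange factor for Rab GTPases, stood at 211, 249.7 and 268 CPM in Veh_N, 14.5, 12.3 and 13.5 in Veh_LPS and 10.2, 8.79 and 11.4 in D2HG_LPS, lower in all 3 libraries with the ester. Neither passed the test (-0.45 ± 0.20 and -0.41 ± 0.14, edgeR adjusted p = 0.307 and 0.163). Rasgrp3, which loads Ras with GTP, was at 1.61% of its resting level with the ester, Plekhg3, a guanine nucleotide exchange factor, at 3.13%, and the amino acid-sensing GTPase Rragd at 7.95%.

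Frat2, whose protein binds the kinase GSK3, had 86, 95 and 89 counts in Veh_N and 0 in all 6 LPS-treated libraries. Against a floor of 3 counts per library it was at least 21.1-fold lower in Veh_LPS and at least 21.9-fold lower in D2HG_LPS. The floor covers counting error only. Its paralogue Frat1 stood at 4.14, 5.51 and 6.9 CPM in Veh_N, 0.198, 0.106 and 0 in Veh_LPS and 0, 0.0854 and 0.0987 in D2HG_LPS.

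Transcription, chromatin and RNA regulators held 28 genes, of which 16 stayed silent, Bhlhe41 rose and 11 were above the line without a call. The glucocorticoid-induced leucine zipper gene Tsc22d3 stood at 97, 95.9 and 112 CPM in Veh_N, 8.79, 10.6 and 9.1 in Veh_LPS and 13.4, 12 and 12.9 in D2HG_LPS. Every library with the ester was above those without, yet the change missed the threshold (0.43 ± 0.12, edgeR adjusted p = 0.0983). The clock-output gene Tef had the same order of libraries (4.64, 4.14 and 3.59 against 5.95, 5.72 and 6.91 CPM, 0.59 ± 0.15, edgeR adjusted p = 0.0699), while the other clock genes Dbp, Per3 and Npas2 had overlapping LPS groups and stood at 5.93%, 7.52% and 5.18% of rest. Nfia reached 15.9%, from 0.494, 0.212 and 0.525 to 1.27, 0.598 and 0.789 CPM, and Smad3, which relays transforming growth factor beta signals, 14.8%, from 1.09, 0.849 and 1.93 to 1.85, 2.82 and 2.07 CPM. Neither was called (edgeR adjusted p = 0.315 and 0.266). The retinoid X receptor Rxra was at 11%, the histone deacetylase Hdac5 at 12%, and E2f2 and E2f7, cell cycle factors of the E2F family, at 12.2% and 13.4%. By the ratio with 0.1 CPM added to both means, Zfp395 stayed lowest of the class, at 1.92%. It had 0.988, 0.849 and 0.788 CPM in Veh_LPS and 0.683, 0.854 and 1.28 in D2HG_LPS against 50.3, 56.5 and 55.2 at rest. Tfap4, at 2.57% by that ratio, had 2 counts over the 3 D2HG_LPS libraries, so the added level is a large part of its share. Zfp36l1, which directs decay of messages with AU-rich elements, stood at 4.46%.

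Of 16 metabolic enzymes 13 stayed silent and none was called. Cerk, ceramide kinase, stood at 299, 304 and 316 CPM in Veh_N, 14.6, 15.1 and 14.7 in Veh_LPS and 15.7, 16.1 and 14.6 in D2HG_LPS, with an interval of -0.12 to 0.26 on the log2 scale. Pdxk, pyridoxal kinase, which makes the active form of vitamin B6, stood at 405, 422 and 403 CPM in Veh_N, 35, 31 and 28.8 in Veh_LPS and 32, 34.5 and 33.5 in D2HG_LPS (interval -0.11 to 0.27). In both, the LPS groups overlapped within a narrow range. The sialyltransferase St6gal1 was at 2.84% of rest without and 2.89% with the ester. Nat8l, which makes N-acetylaspartate, had 103, 110 and 106 counts in Veh_N, 0, 0 and 1 in Veh_LPS and 0 in every D2HG_LPS library, so it was at least 26.0-fold lower than rest there. Pcyt1b, of phosphatidylcholine synthesis, had 1, 0 and 0 counts in Veh_LPS and 0, 0 and 2 in D2HG_LPS, too few to tell a return from none. Pdk2, which inhibits pyruvate dehydrogenase, was above the line at 14.5% (1.09, 1.49 and 1.05 against 2.73, 2.22 and 1.97 CPM, edgeR adjusted p = 0.107), and Pank1, of coenzyme A synthesis, at 12%.

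Among 14 genes of the cytoskeleton and adhesion 10 stayed silent. Tns1, tensin, which ties integrins to actin, stood at 242, 269 and 278 CPM in Veh_N, 5.14, 5.09 and 6.83 in Veh_LPS and 7.02, 8.37 and 6.71 in D2HG_LPS, which is 2.84% of rest, with overlapping LPS groups (0.37 ± 0.15, edgeR adjusted p = 0.261). Mtss1, a membrane-bending actin regulator, was lower in all 3 libraries with the ester (6.12, 6.05 and 6.91 against 4.39, 5.81 and 5.72 CPM) without passing the test (edgeR adjusted p = 0.513).

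Genes of the ubiquitin system, the inflammasome and cell death numbered 9, of which 6 stayed silent. Trim47, a ubiquitin ligase, stood at 23.9, 31.8 and 30.2 CPM in Veh_N, 1.19, 3.18 and 1.4 in Veh_LPS and 4.1, 4.53 and 4.64 in D2HG_LPS. The groups were separate, with Veh_LPS replicate 2 nearest to D2HG_LPS, and the test was missed narrowly (1.23 ± 0.30, edgeR adjusted p = 0.059). Trim47 was called in 6 of 18 alternatives and missed in the others. Among the 6 were the removal of that replicate, the highest of Veh_LPS (edgeR adjusted p = 0.00731), and DESeq2 (adjusted p = 0.00231). Bmf, a BH3-only gene that promotes cell death, had 248, 315 and 265 counts in Veh_N, 0, 2 and 1 in Veh_LPS and 3, 5 and 7 in D2HG_LPS. Each D2HG_LPS library was above each Veh_LPS library, but the counting interval of the log2 ratio ran from 0.45 to 4.70, and edgeR gave an adjusted p of 0.155. Fbxo32, the ubiquitin ligase subunit atrogin-1, was at 12.5%, and the inflammasome sensor Nlrp1b at 7.82%.

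Of 9 genes of cell division and DNA damage 6 stayed silent. Chek2, a checkpoint kinase, stood at 26.3, 22.8 and 22.6 CPM in Veh_N, 1.88, 1.8 and 2.45 in Veh_LPS and 2.83, 3.93 and 3.55 in D2HG_LPS, which is 14.8% of rest and separate from Veh_LPS, without a call (0.74 ± 0.21, edgeR adjusted p = 0.106). The spindle gene Aspm went the other way, at 2.27, 2.86 and 4.99 CPM in Veh_LPS and 1.76, 1.28 and 1.97 in D2HG_LPS (-1.05 ± 0.42, edgeR adjusted p = 0.244). The mitotic activator Cdc20 was at 9.08% with overlapping LPS groups.

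The remaining 27 genes have other or less known roles, and 22 of them stayed silent. Fam214a stood at 37.6, 42.8 and 39.6 CPM in Veh_N, 0.198, 0.318 and 0.35 in Veh_LPS and 0.293, 0.342 and 0.592 in D2HG_LPS, or 2, 3 and 4 against 3, 4 and 6 counts. With 0.1 CPM added to both means it was at 1.27% of rest with the ester, while Frat2 and Nat8l had no counts there. Tcp11l2 stood at 54.9, 57.6 and 64.9 CPM in Veh_N, 0.395, 1.06 and 0.35 in Veh_LPS and 0.683, 1.28 and 1.88 in D2HG_LPS, with overlapping LPS groups. Etl4 kept 3.87% and Lhfpl2, a tetraspan membrane protein gene, 4.02%. Tmem37 was above the line at 15.7%, from 0.889, 0.743 and 1.14 to 1.85, 2.05 and 2.07 CPM, and Ypel3, a growth-restraining gene, was below it at 6.62% although its D2HG_LPS libraries (6.73, 4.35 and 5.62 CPM) were all above those of Veh_LPS (3.26, 3.08 and 3.24). Neither passed the test (edgeR adjusted p = 0.157 and 0.188).

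**Figure D3:**
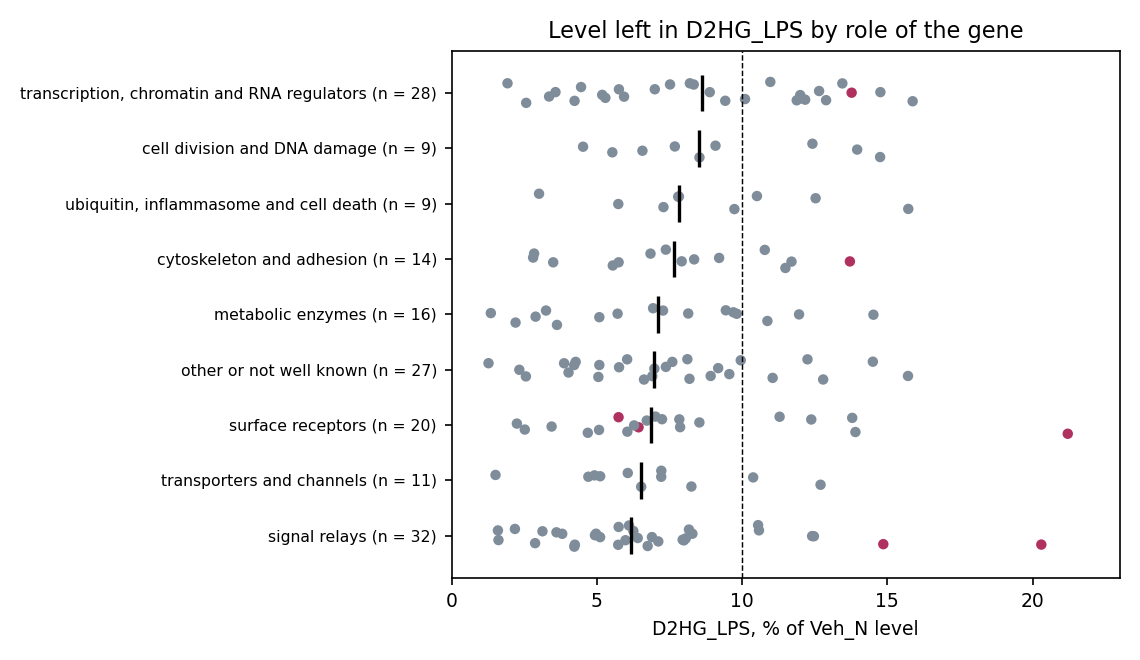
Level left in D2HG_LPS as a percent of the Veh_N mean (horizontal axis) for 166 genes in 9 classes of role. Each point is a gene, red where called higher than in Veh_LPS, short bars are class medians, and the dashed line marks 10%. Medians run from 6.18% in signal relays to 8.61% in transcription, chromatin and RNA regulators.

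Across the set the median log2 fold change of D2HG_LPS over Veh_LPS was 0.31, against 0.01 for all tested genes, and 116 of the 166 (69.9%) were above 0, against 51.7% of all genes. The 3 D2HG_LPS libraries were higher than all 3 Veh_LPS libraries in 36 genes (21.7%, against 11.8% of all genes) and lower than all in 8 (4.82%, against 12.4%). To take out the lean that selection gives, the set was chosen again without 1 Veh_LPS library and set against that library alone, with 0.1 CPM added. The median log2 difference was then 0.19, 0.26 and 0.16 with replicate 1, 2 and 3 left out, where the full choice gave 0.28, and over all tested genes the same medians were 0.01, 0.01 and 0.02. In the left-out Veh_LPS library alone, 13.9%, 15.6% and 16.4% of the genes so chosen were above the 10% line. In single D2HG_LPS libraries 24.6% to 31.1% of the same genes were. The held-out medians, which are smaller than 0.31, do not rest on the Veh_LPS values that chose the genes. Each rests on 1 Veh_LPS library, and the medians over all tested genes were not matched to the low counts of the set.

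**Figure D4:**
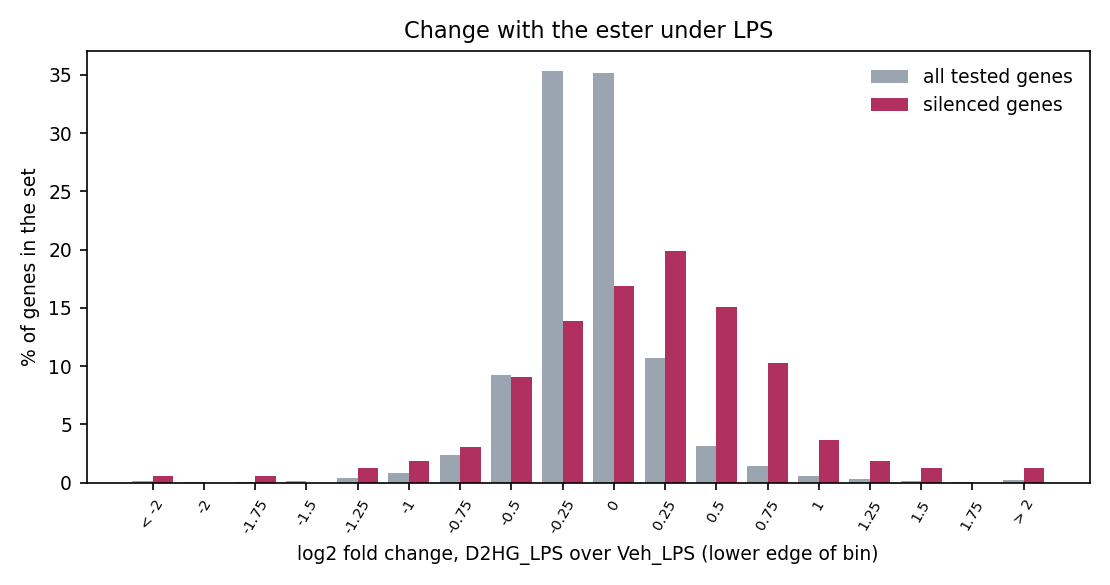
Log2 fold changes of D2HG_LPS over Veh_LPS, in bins of 0.25 (horizontal axis), as a percent of the 166 silenced genes (red) and of all 11622 tested genes (grey). The red bars peak between 0.25 and 0.5 (19.9% of the set) and the grey ones on either side of 0, and the red bars include the upward lean of the selection.

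Low counts limited what could be said of many members. In 65 of the 166 fewer than 30 counts were found over the 3 Veh_LPS libraries. Shares of rest are given with 0.1 CPM added to both means, so where counts are few the added level is part of the share. Etl4, Irs2 and Npas2, for example, had 7 counts each over the 3 D2HG_LPS libraries. The upper 95% bound of the log2 fold change was below 1 in 84 genes (50.6%, against 90.6% of all genes), so for these a doubling with the ester lay above the interval. In Arrdc3 and Cd300a the whole interval was above 1, Frat2 has no interval, and in the rest a doubling lay inside it. Set against Veh_N, all 166 were lower in D2HG_LPS (edgeR adjusted p below 0.05, against 37.2% of all genes), as all 166 were in Veh_LPS, where 38.9% of all genes were called lower and the result follows from the selection. Both of these comparisons share the Veh_N libraries, which the rule also used. The fall in D2HG_LPS against Veh_N therefore leans downward by selection as well and is not an independent result.

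Members belonged to 10 of 11 gene lists of related function. These lists were chosen with earlier results of these data known, so member counts are descriptions and were not tested. Over all tested genes the members are 166 of 11622. FoxO factors and FoxO-linked growth brakes held most, 7 of 33 tested genes (Fbxo32, Irs2, Mxd4, Tcp11l2, Tsc22d3, Ypel2 and Ypel3). Of these 33 genes, 25 were lower and 5 higher under LPS (edgeR adjusted p below 0.05, which 38.9% and 35% of all genes met), with a median log2 fold change of -1.62. With the ester 4 of the 33 were higher than in Veh_LPS (Gabarapl1, Mxi1, Sesn2 and Trib3) and none was lower, where 1.15% and 0.955% of all genes were, and none of those 4 is a silenced gene. Among the members, the Myc antagonist gene Mxd4 was at 8.2% of rest with the ester, Ypel2 at 4.22% and the insulin receptor substrate gene Irs2 at 5.11%. Solute carriers held 6 members of 33 tested, with 22 of the 33 lower and 8 higher under LPS and 1 higher and none lower with the ester (Slc16a6, not a silenced gene; the same 1.15% and 0.955% of all genes apply). Homeostatic macrophage surface receptors held 4 members of 48 tested, with 27 lower and 18 higher under LPS, and with the ester 2 higher and 3 lower (against 1.15% and 0.955% of all genes), none of them a silenced gene.

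Some members were neighbours. Among protein-coding genes in chromosome order (GRCm38.p6), 11 of 164 members (6.71%) lay next to another member, while 173 of 8951 other genes at 5 CPM or more in Veh_N (1.93%) lay next to a member. Beside Cd300a and Cd300lb these were Card14, Sgsh and Slc26a11 in a row on chromosome 11, Slit1, Arhgap19, Frat1 and Frat2 in a row on chromosome 19, and Mxd4 and Zfyve28 on chromosome 5. With 0.1 CPM added to both means, Card14 and Sgsh were silent with the ester, at 6.9% and 6.93% of rest, as were Slc26a11 (1.51%) and Arhgap19 (2.18%). Frat1 was at 2.87%, which rests on 2 counts over the 3 D2HG_LPS libraries, and Frat2 had 0 counts there. Slit1, in the same row as Frat1 and Frat2, was above the 10% line at 12.5% without a call (edgeR adjusted p = 0.232). Libraries were made strand-specific, but whether the counting used the strand is not stated, so neighbours whose transcripts overlap may share reads, and near-identical copies such as Nlrp1b and Nlrp1c-ps may too.

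Transcripts of the silenced genes were long, mainly after the stop codon. With the longest GENCODE vM21 transcript linked to a RefSeq entry of each gene, the 3′ untranslated region (UTR) had a median of 1804 bases in 164 members and 1148 in 9102 genes at 5 CPM or more in Veh_N. The coding part differed less, with medians of 1522 and 1389 bases. Of the 7 genes called higher with the ester, Bhlhe41 (4612 bases), Cd300a (3367), Arrdc3 (2619), Cnr2 (2554), Cd300lb (2115) and Gab1 (1894) had 3′ UTRs above the median of the set and Fblim1 (1771) one just below it. Those of the 10 most reduced genes ran from 636 bases in Tcp11l2, 637 in Plekhg3, 794 in Slc26a11 and 803 in Fam214a to 3523 in Pcyt1b, 3804 in Bmf and 4772 in Nat8l. Members that stayed silent and members above the line had medians of 1750 and 1894 bases. Copies of ATTTA, the core of AU-rich decay elements, were no denser, at a median of 0.922 per kilobase of 3′ UTR in the set and 1.32 in the genes at 5 CPM or more, which include the set. These lengths are descriptions with no test, and longer transcripts collect more counts at a given number of molecules, so the 5 CPM limit can favour them in both sets.

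**Figure D5:**
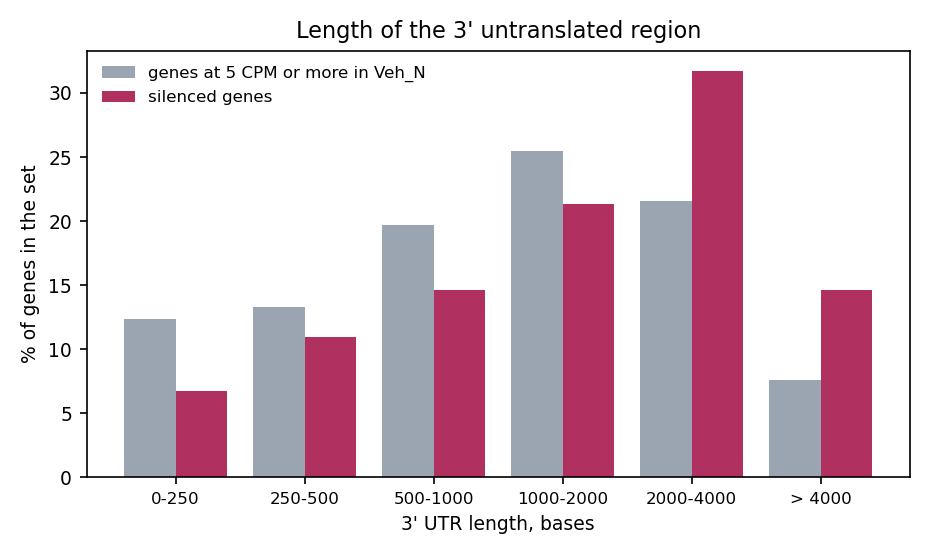
Length of the 3′ UTR in bases (horizontal axis, 6 bins) as a percent of 164 silenced genes (red) and of all 9102 genes at 5 CPM or more in Veh_N, the silenced ones included (grey). Bins above 2000 bases hold 31.7% and 14.6% of the silenced genes and 21.6% and 7.62% of all.

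The limits of the selection were not natural gaps. Just inside 10% under LPS were Pank1 (9.85%), Dennd2c (9.82%) and Cntrob (9.79%), and just outside were Arhgef39 (10.1%), Paqr7 (10.1%) and Sult1a1 (10.1%). With the ester these stood at 12%, 12.4% and 14% inside and 13.3%, 12.6% and 7.26% outside. Just above 5 CPM in Veh_N were Bcl7a (5.01 CPM), Depdc7 (5.08) and Ier5l (5.09), and just below were Cmah (4.99), Zfp760 (4.98) and AA388235 (4.76). With the ester the first 3 stood at 11.9%, 7.37% and 12.8% of rest and the others at 5.74%, 12.6% and 10.5%.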

How the data were processed

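RNA from 9 macrophage libraries in 3 groups of 3 was analysed. The authors deposited raw read counts for 35745 RefSeq transcripts. The submitters' processing notes name STAR 2.5.2b, DESeq2, mm10 and mm9, with no role for the builds. How reads were counted, and on which strand, is not stated there. A RefSeq table gave symbols for 35435 transcripts and GENCODE vM21 for 193. The 117 unmatched, with 0.676% to 2.37% of a library's counts, were left out. Isoforms share reads (median ratio of the next transcript to the highest 0.992), so the transcript with most counts stood for its gene. Counts were filtered with filterByExpr, scaled by TMM and fitted over all 9 libraries with edgeR 4.0.16 in R 4.3.3 (glmQLFit, robust, and glmQLFTest, two-sided), with Benjamini-Hochberg adjustment over 11622 genes. Standard errors came from dividing fold changes by the root of F. The fit and the selection were tested on simulated data. Alternatives were DESeq2 1.42.0, limma-voom (limma 3.58.1), other scalings, limits, filters and left-out libraries. Few counts limit precision, and floors and counting intervals cover counting error only, while the 95% intervals of fold changes come from edgeR and hold the spread between replicates. Replicate pairs differed by more than counting noise (chi-square per degree of freedom 2.7 to 22.5).

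The genes, lists, roles and limits were chosen with earlier results of these data known. Named genes were the 12 most abundant in Veh_N, the 10 most reduced, those called with the ester, the 8 highest and 5 lowest with the ester, those beside the limits and up to 6 from each list. A gene that this rule gives is not reported here. Other members named, such as Tef, Lifr, Aspm, Mtss1 and the neighbours, and the printed windows, were picked after their values were seen.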

Additional observations from a re-analysis of the deposited data

How the results depend on the processing

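The size of the set rests on its limits, the scaling and the choice of transcript. Upper-quartile scaling gave 234 genes, with all 166 among them. Summing the transcripts of each gene gave 149, of which 141 were among the 166. Under library totals alone, which shift the median gene under LPS by -0.67 on the log2 scale, 325 genes met the rule, 254 were silent with the ester and 22 were called higher. An offset of 1 CPM left 74 genes with 57 silent. A limit of 0.05 left 54 genes and a limit of 0.2 gave 435. For these the cut for silence moved with the limit, so their counts cannot be set beside the 123. In D2HG_LPS 34 of the 54 were at or below 0.05 of Veh_N, and 353 of the 435 at or below 0.2. The median log2 fold change of 0.31 became 0.257 with DESeq2 size factors, 0.271 with the DESeq2 test and 0.28 with limma-voom. Leaving out single libraries gave 0.231 to 0.31, and choosing the set without Veh_LPS replicate 1, 2 or 3 and setting it against that library alone gave 0.189, 0.255 and 0.16. Without single libraries 164 to 172 genes met the rule, 118 to 128 were silent, 5 to 9 were called higher and 0 lower. The genes were not all the same. Of the 166, 155 to 162 remained when a Veh_LPS or Veh_N library was left out, and all 166 when a D2HG_LPS library was. DESeq2 called 8 higher (with Trim47) and limma-voom 6 (without Gab1). TMM before filtering, chosen after seeing the data, kept the same 166 genes. No named gene called here changed sign under any alternative.

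Replicate numbers are shared by the groups, but same-numbered samples did not deviate together (correlations -0.137 to 0.036 between the LPS groups), so the numbers were not used as pairs. With the replicate block 6 genes were called higher, 0 lower and the median was 0.305. Gab1 was the call that the block removed (edgeR adjusted p = 0.0915).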
